A study of Mus musculus with 35 samples.

Results

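The small proline-rich (Sprr) genes were followed through all skin libraries of a study of radiation dermatitis in mice. The 9 members were Sprr1a, Sprr1b, Sprr2a1, Sprr2a2, Sprr2b, Sprr2d, Sprr2e, Sprr2h and Sprr3. They were chosen by symbol from the 36106 genes of the count table, with earlier results of these data known. A further 8 Sprr genes of the table (Sprr2a3, Sprr2c-ps, Sprr2f, Sprr2g, Sprr2i, Sprr2j-ps, Sprr2k and Sprr4) are given beside them. RNA was sequenced in bulk from 35 skin samples. They came from 19 mice of the inbred strain C57BL/6J, all female and 10 weeks old. The left flank received 25 Gy, at 3.6 Gy per min over 420 s, and the treated skin was then shaved. Radiated skin and control skin were each sampled at 1, 2, 3 and 4 weeks (n = 4 per group and week), and skin of sham mice, which were not radiated, formed the ninth group (n = 3). No allele, drug or diet distinguishes the groups in the labels, which do not say where on the body control skin was taken or whether control and sham skin was shaved. Different mice were sampled in each week, and equal replicate numbers within a week were read as radiated and control skin of 1 mouse, because 35 samples came from 19 mice.

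Small proline-rich proteins are short, proline- and glutamine-rich precursors that transglutaminases cross-link into the cornified envelope, the protein shell laid down beneath the membrane of dying keratinocytes. Their genes lie in the epidermal differentiation complex together with those of involucrin, loricrin, the filaggrins and the late cornified envelope proteins. In resting interfollicular epidermis most of them are weakly expressed, and they are known to rise in wounded, inflamed or barrier-deficient epidermis.

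Totals per library ran from 17362853 to 28487885 estimated counts, so that 3 counts, taken as the floor of detection, correspond to 0.105 to 0.173 CPM (counts scaled to a library of 1e6). Values below are CPM on TMM-scaled libraries (trimmed mean of M values), and a difference was called at an adjusted p under 0.05 in edgeR. The basal keratins Krt5 and Krt14, which define epidermis, were present in every library, with a sum between 4006 and 14254 CPM. Hair follicle markers were far above the other libraries in 2 of the 3 sham libraries: the sum of 11 genes, among them Krt71, was 2142, 27815 and 33613 CPM in sham replicates 1 to 3. In radiated and control libraries that sum ran from 13.5 to 6746 CPM, a range that holds sham replicate 1.

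In the GENCODE M21 annotation of GRCm38, all 17 Sprr genes lie in 1 cluster on chromosome 3. Sprr1a (chr3:92483952-92485895), Sprr1b (chr3:92436809-92438789) and Sprr3 (chr3:92456502-92458720) are on the minus strand, and the Sprr2 genes are on the plus strand, from Sprr2a1 (chr3:92215799-92221911) to Sprr2k (chr3:92432582-92433925). The annotated model of Sprr2a2 (chr3:92215920-92256724) overlaps that of Sprr2a1. Of the 31-base words in the transcripts of Sprr2a1 and Sprr2a2, 96.9% and 97.8% also occur in another Sprr gene, so the split of reads between these copies is uncertain. The shared portion was 31.9% for Sprr2b, 21.1% for Sprr2e, 10.3% for Sprr2d and 3% for Sprr2h, and 0% for Sprr1a, Sprr1b and Sprr3. Sums over the family are therefore given beside the single Sprr2 genes.

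The 250 bases before the annotated start are printed for 6 genes that differ in level and course: Sprr1a, with the highest level in unradiated skin, Sprr1b, Sprr2d and Sprr2h, which were low there and high in radiated skin, Sprr2a2, the Sprr2 copy with the highest CPM in radiated skin of week 4, and Sprr4, which did not follow the members. Sequences are from RefSeq on GRCm38.p6, 5′ to 3′ on the strand of the gene. For Sprr2a2 the RefSeq start lies inside the GENCODE model given above, far from the start of that model. Capitals mark matches to the AP-1 motif TGANTCA and to the TATA box TATAAA.
Sprr1a, chr3:92485882-92486131, minus strand: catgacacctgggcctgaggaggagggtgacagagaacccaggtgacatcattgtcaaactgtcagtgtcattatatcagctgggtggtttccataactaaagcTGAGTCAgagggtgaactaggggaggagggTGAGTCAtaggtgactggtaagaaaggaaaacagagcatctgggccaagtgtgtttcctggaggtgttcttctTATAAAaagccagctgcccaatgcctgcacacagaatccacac
Sprr1b, chr3:92438780-92439029, minus strand: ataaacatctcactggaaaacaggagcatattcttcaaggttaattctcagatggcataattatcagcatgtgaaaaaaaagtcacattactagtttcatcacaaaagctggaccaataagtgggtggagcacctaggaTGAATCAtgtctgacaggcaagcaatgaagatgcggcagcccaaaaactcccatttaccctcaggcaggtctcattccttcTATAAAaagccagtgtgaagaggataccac
Sprr2d, chr3:92338890-92339139, plus strand: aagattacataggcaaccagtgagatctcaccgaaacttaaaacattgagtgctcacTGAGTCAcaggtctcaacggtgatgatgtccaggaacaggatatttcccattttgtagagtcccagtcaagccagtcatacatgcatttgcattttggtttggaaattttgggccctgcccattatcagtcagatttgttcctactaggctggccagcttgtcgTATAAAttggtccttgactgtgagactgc
Sprr2h, chr3:92385435-92385684, plus strand: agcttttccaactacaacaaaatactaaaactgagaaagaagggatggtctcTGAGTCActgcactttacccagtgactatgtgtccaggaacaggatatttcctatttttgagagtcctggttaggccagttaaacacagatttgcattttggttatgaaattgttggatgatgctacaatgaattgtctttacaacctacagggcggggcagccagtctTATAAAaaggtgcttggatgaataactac
Sprr2a2, chr3:92250397-92250646, plus strand: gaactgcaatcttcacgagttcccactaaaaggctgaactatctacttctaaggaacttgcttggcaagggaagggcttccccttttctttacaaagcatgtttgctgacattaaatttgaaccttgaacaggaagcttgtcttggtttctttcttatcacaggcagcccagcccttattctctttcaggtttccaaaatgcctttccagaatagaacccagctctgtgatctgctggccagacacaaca
Sprr4, chr3:92500494-92500743, minus strand: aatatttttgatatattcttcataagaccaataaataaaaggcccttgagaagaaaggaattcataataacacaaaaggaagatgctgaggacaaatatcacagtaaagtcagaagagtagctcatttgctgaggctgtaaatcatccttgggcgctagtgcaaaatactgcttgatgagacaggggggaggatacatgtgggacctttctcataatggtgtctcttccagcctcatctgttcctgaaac

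Motifs were searched on both strands in windows of 300 bases, from 250 before to 50 after the start, which RefSeq gave for all 9 members and for 14 of the 17 Sprr genes. TGANTCA, the site bound by AP-1 (Fos and Jun dimers), was found in 6 of the 9 members and in 7.81% of 32851 promoters of the same length. TATAAA was found in 7 of the 9 members and in 13.6% of all promoters. The layout was alike among the Sprr2 genes that held both: in Sprr2b, Sprr2d, Sprr2e and Sprr2h the TATA box began 29 bases before the start and the AP-1 match between 193 and 198 bases before it. In Sprr1b the AP-1 match began 111 bases before the start, and Sprr1a held a pair of matches that began 146 and 116 bases before it. Sprr2a1 and Sprr2a2 had identical windows with neither motif, Sprr3 had the TATA box alone, and Sprr4 had neither. The windows of Sprr2a1 and Sprr2a2 end in letters that resemble those just before the TATA box of Sprr2b. They may thus stop short of that position. A motif beyond a window, or before a start that is not annotated, would be missed, also in Sprr4. Of the other motifs searched, CACCC, bound by Klf factors, was found in 6 of 9 members against 57.5% of promoters, GGAAGT, an Ets core, in 2 of 9 against 23.8%, TGACNNNGC, the core of the antioxidant response element, in 1 of 9 against 12.4%, and AACCGG, part of a grainyhead site, in 0 of 9 against 6.83%. In Sprr1a, AP-1 matches overlapped the TGACNNNGC match and a CACCC match. These matches describe letters in the window only.

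At week 4, when the question is how far radiated skin had moved from control skin of the same week, all members but Sprr3 were far above control skin. Of the 9 members, 8 passed the filter on low counts and 8 were called higher in radiated skin in edgeR, where 24.2% of the 17850 genes tested were called higher and 24.2% lower. Sprr1a and Sprr2a2 reached the filter's minimum in all 4 control libraries. Sprr1b reached it in 2, fewer than the 4 libraries needed, so it also needed its radiated libraries to pass. The other 5 reached it in 0, so they passed only through the radiated libraries and had to differ.

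Sprr1a, a broad stress-induced precursor of the envelope, was at 206, 253, 807 and 377 CPM in radiated replicates 1 to 4 and at 60.8, 44.4, 34.5 and 26.8 CPM in control replicates 1 to 4 of week 4. The lowest radiated library lay above the highest control library. Replicate 3, the highest, also held 5810 CPM of the 11 hair follicle genes, against 25.3 to 262 CPM in the other radiated libraries of that week, and their part was not tested. In edgeR this was a log2 fold change of 3.31 ± 0.45 (SE), with an adjusted p of 0.000245. Sprr1b, its close relative, started from almost nothing: 0.529, 0.265, 0.598 and 0.0384 CPM in control skin against 77.7, 103, 240 and 140 CPM in radiated skin. The nearest values of its groups, 0.598 and 77.7 CPM, lay far apart. In edgeR the log2 fold change was 8.66 ± 0.56 (SE) and the adjusted p 4.01e-06.

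The Sprr2 proteins are smaller envelope precursors encoded by a tandem array. Sprr2a2 was at 259, 312, 175 and 93.6 CPM in radiated skin and at 2.54, 1.95, 0.641 and 0.807 CPM in control skin of week 4, with no overlap. In edgeR it rose by 7.19 ± 0.535 on the log2 scale (SE), with an adjusted p of 7.41e-06. Sprr2h was at 30.3, 26.1, 18.9 and 31.0 CPM in radiated skin, against 0.37, 0.0442, 0.342 and 0.192 CPM in control skin (a log2 difference of 6.81 ± 0.36 (SE) in edgeR, adjusted p 2.11e-06). Sprr2d was at 34.1, 27.4, 7.04 and 18.4 CPM, while its control libraries held 1 count in all. The ratio of pooled CPM was 1985, with an exact 95% counting interval from 356 to 78427, which covers counting error only (adjusted p 1.1e-05 in edgeR). That count lay in control replicate 2, under the floor of 3 counts, so the size of the ratio is uncertain. Without that library the log2 difference in edgeR moved from 10.4 to 12.0.

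A further 3 copies were at 0 counts in every control library of week 4, so at most lower bounds of their change can be given, against 3 counts in each control library. Sprr2a1 was at 9.78, 9.27, 9.93 and 3.39 CPM in radiated skin (adjusted p 8.42e-05 in edgeR). No bound is given for it, since its reads in control skin could be listed under Sprr2a2. Sprr2e, at 5.85, 2.95, 2.85 and 6.11 CPM, was at least 33.2-fold higher (adjusted p 9.29e-05 in edgeR). Sprr2b, at 9.48, 3.53, 0.461 and 1.96 CPM, was at least 28.8-fold higher (adjusted p 0.0045 in edgeR), and at least 14.8-fold higher without radiated replicate 1.

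Sprr3, best known from oral and oesophageal epithelium, stayed near the floor everywhere. It had 0 counts in all 19 sham and control libraries and at most 4 counts in a radiated library, and it never passed the filter. A count of 0 in a library allows up to 0.105 to 0.173 CPM.

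**Figure D1:**
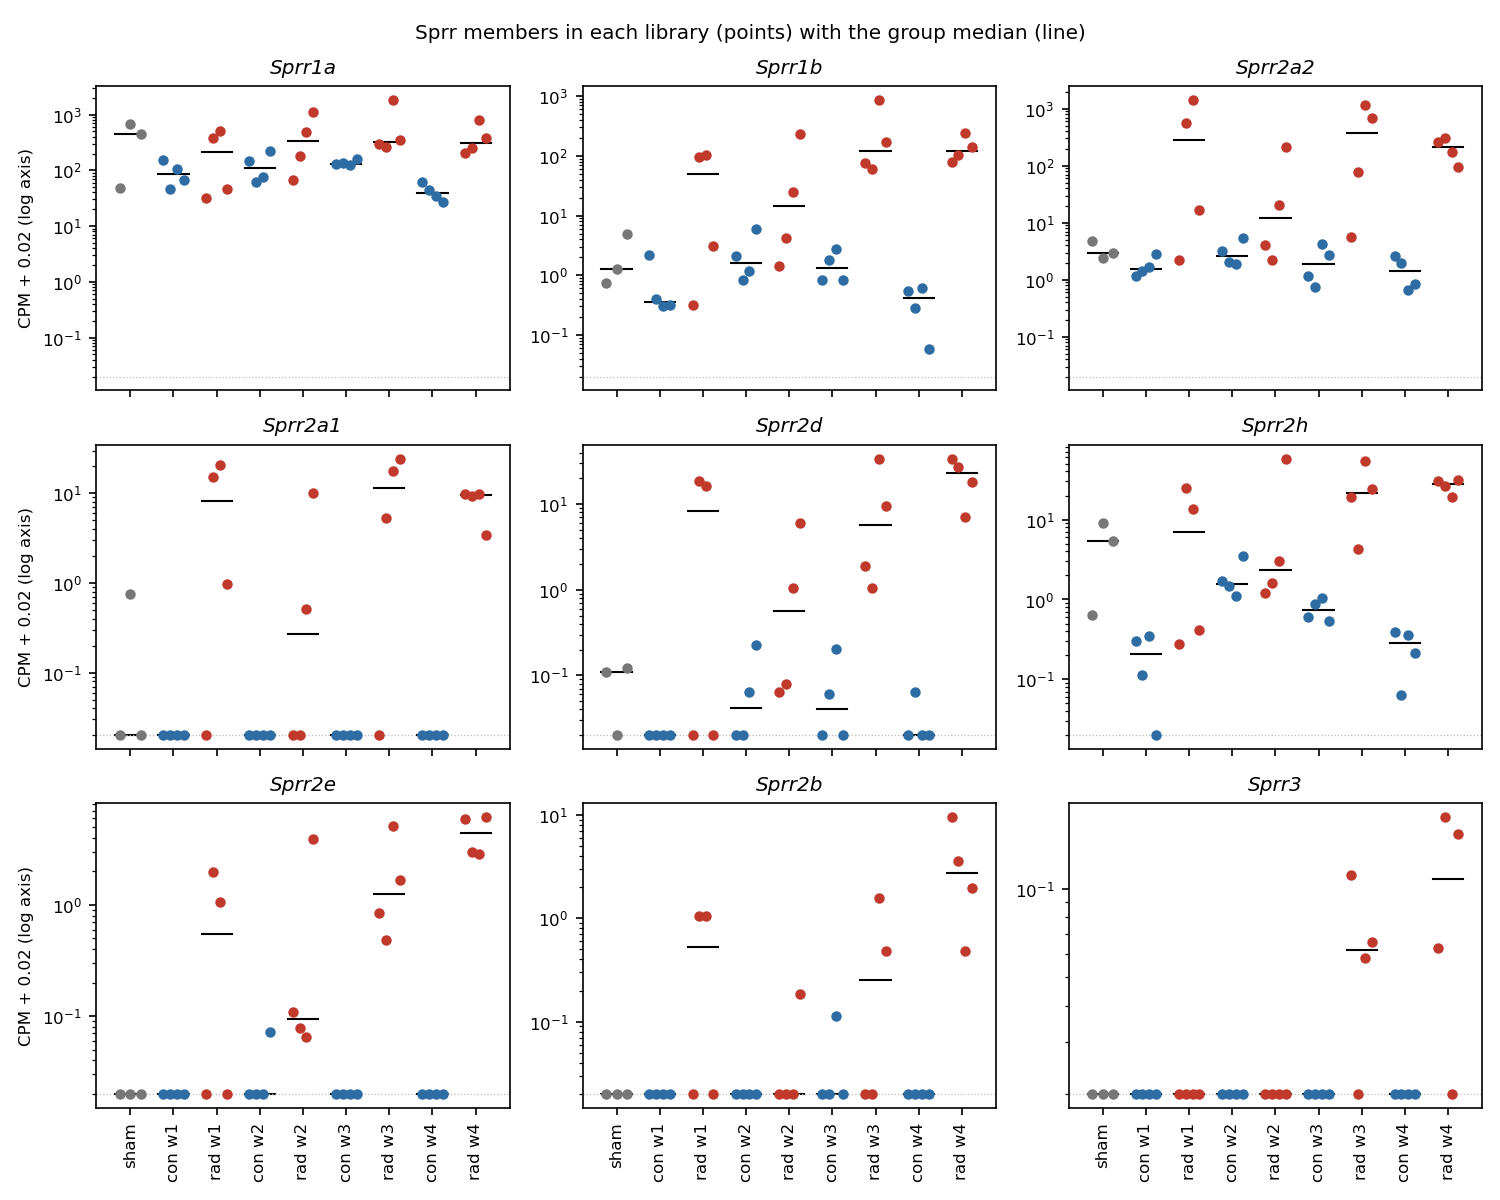
CPM of each member in every library, plus 0.02 on a log axis, so that points on the dotted line are libraries at 0 counts. Grey is sham, blue control and red radiated skin, w1 to w4 are weeks, and black lines are group medians. At week 4 the radiated points of 8 members lie above all control points of that week. The share of all genes so separated is not given. Sprr2a1, Sprr2b, Sprr2d, Sprr2e and Sprr2h reached the filter's minimum in no control library of that week, so their separation was fixed by passing. At weeks 1 and 2 the radiated points of most members spread widely.

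At week 3, 6 members passed the filter and 6 were called higher in edgeR, where 13.6% of 17653 genes tested were called higher and 13.6% lower. Of these 6, Sprr2d and Sprr2e reached the filter's minimum in 0 control libraries, so they passed only through the radiated libraries and had to differ. Sprr2h reached it in 3 control libraries, fewer than the 4 needed, so it also needed its radiated libraries to pass. The radiated libraries were widely spread. Sprr1b was at 76.2, 60.2, 871 and 168 CPM in radiated replicates 1 to 4 and at 0.81, 1.76, 2.7 and 0.799 CPM in control skin (a log2 difference of 7.61 ± 1.07 (SE) in edgeR, adjusted p 0.00191). Sprr2a2 was at 5.62, 78.3, 1139 and 684 CPM against 1.12, 0.737, 4.28 and 2.68 CPM (a log2 difference of 7.79 ± 1.52 (SE) in edgeR, adjusted p 0.00622). Replicate 1 was thus barely above the highest control library for Sprr2a2 and far above it for Sprr1b. Replicate 3 was the highest for both, and without it the log2 differences were 6.07 for Sprr1b and 6.88 for Sprr2a2.

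Sprr2h rose as well at week 3, from 0.585, 0.86, 1.02 and 0.514 CPM in control skin to 19.0, 4.29, 53.6 and 24.1 CPM (a log2 difference of 5.09 ± 0.71 (SE) in edgeR, adjusted p 0.0019), with a log2 difference of 4.41 without radiated replicate 3. Sprr2d (1.88, 1.03, 33.6 and 9.44 CPM in radiated skin, adjusted p 0.00569 in edgeR) and Sprr2e (0.823, 0.466, 5.07 and 1.66 CPM, adjusted p 0.00937 in edgeR) were at most 0.186 CPM in any control library of that week. Both were called. Sprr2a1 missed the filter because radiated replicate 1 was at 0 counts, and was called when no filter was applied. Sprr2b reached the filter's minimum in 2 radiated libraries and was not called without the filter.

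The week 3 increase of Sprr1a was the least secure of these. Its radiated libraries were at 295, 257, 1836 and 346 CPM against 132, 133, 126 and 162 CPM in control skin, so that the groups did not overlap and 1 library was far above the rest (a log2 difference of 2.33 ± 0.62 (SE) in edgeR, adjusted p 0.0212). With the replicate block, which compares radiated and control skin of the same number, the log2 fold change was 1.72 and the adjusted p 0.055. Without radiated replicate 3 the log2 fold change was 1.14, and leaving out any 1 control replicate moved the adjusted p to between 0.0505 and 0.0581. DESeq2 gave it no adjusted p.

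At weeks 1 and 2 no member was called in edgeR, against 0% and 0.00577% of all genes tested. Of 3 members tested at week 1, 2 had an unadjusted p under 0.05, as had 2477 of 17578 genes, and DESeq2 called 5 members. At week 2 the unadjusted p was under 0.05 for 4 of 4 members tested and for 2388 of 17345 genes, and DESeq2 called 2 members. The count at week 1 turned on 1 library: without radiated replicate 1, edgeR called 3 members. The shares of all genes called in that refit and by DESeq2 are not given, so these counts have no background.

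In these weeks the members were high in some radiated libraries and within the control range in others. Sprr2a2 at week 1 was at 2.18, 553, 1430 and 16.9 CPM in radiated replicates 1 to 4, where replicate 3 was the highest of all 35 libraries, and between 1.16 and 2.78 CPM in control skin. Sprr1b was at 0.299, 94.7, 102 and 3.02 CPM, with replicates 2, 3 and 4 above every control library of that week and replicate 1 among them. The log2 fold changes, 8.15 (SE 1.7) for Sprr2a2 and 5.99 (SE 1.5) for Sprr1b, had an adjusted p of 0.19 each in edgeR. Without radiated replicate 3 they were 6.76 and 5.37, and without control replicate 1 that of Sprr1b was 7.26. At week 2 the high library was replicate 4: Sprr1b was at 1.42, 4.15, 25.2 and 231 CPM and Sprr2a2 at 3.98, 2.22, 20.5 and 209 CPM. Control skin of week 2 reached 5.89 CPM for Sprr1b and 5.37 CPM for Sprr2a2, so replicates 1 and 2 lay within the control range. Without radiated replicate 4, the log2 fold change of Sprr1b moved from 4.75 to 2.04 and that of Sprr2a2 from 4.27 to 1.52.

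The same libraries were high for the injury keratins. Krt6b, a keratin of wounded epidermis, was at 3350 and 1099 CPM in radiated replicates 2 and 3 of week 1 and at 3.07 and 56.9 CPM in replicates 1 and 4. In week 2 it was at 3022 CPM in replicate 4 and at most 26.1 CPM in the other radiated libraries. The summed level of 6 injury markers (Krt6a, Krt6b, Krt16, Krt17, S100a8 and S100a9) was 359 to 14387 CPM in radiated skin of week 1, 763 to 13731 at week 2, 4835 to 15021 at week 3 and 10108 to 13569 at week 4. Control skin of the 4 weeks stayed between 488 and 986 CPM. The part of these cells in the Sprr values was not tested, and in bulk tissue more cells of a type and more RNA per cell cannot be told apart.

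A change of the radiated-minus-control difference from week to week was tested in 1 model of the 32 libraries. No member of 8 tested was called in edgeR, against 15.6% of 19338 genes. An unadjusted p under 0.05 was found for 0 members and for 5701 genes. DESeq2's likelihood ratio test also called 0 (adjusted p from 0.271 to 0.987). With the replicate block, Sprr2d (adjusted p 0.00964) and Sprr2h (adjusted p 0.0274) were called. Members at 0 in all control libraries carry little information in this model. The pattern of calls at weeks 3 and 4 but not at weeks 1 and 2 is therefore not shown to be a change over time by the fit without the block. With the block, calls were limited to Sprr2d and Sprr2h, and the share of all genes called with it is not given.

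**Figure D2:**
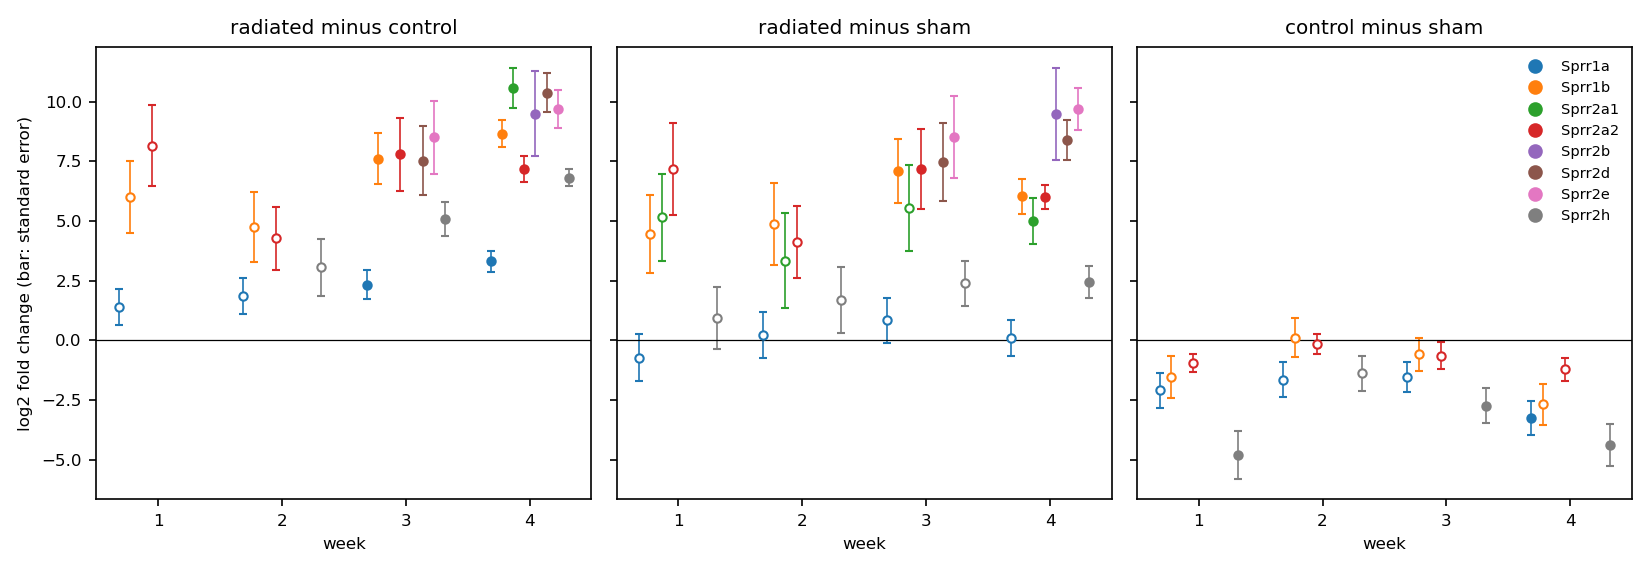
Log2 fold change and standard error of each member that passed the filter, by week, for radiated against control, radiated against sham and control against sham skin; filled points had an adjusted p under 0.05 in edgeR. In the first panel Sprr1a is the lowest point of every week, from 1.39 at week 1 to 3.31 at week 4, and in the second it lies between -0.72 and 0.84.

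The sum of the 9 members depends less than single genes on how reads were split between copies. It was at 631, 738, 1261 and 672 CPM in radiated skin of week 4 and at 64.2, 46.7, 36.1 and 27.8 CPM in control skin. In sham skin it was at 54.9, 703 and 454 CPM, which overlaps the radiated values of week 4. The mean log2 ratio of radiated to control skin within same-numbered pairs was 1.64 ± 3.29 (SD, n = 4) at week 1, 1.5 ± 1.79 at week 2, 2.74 ± 1.56 at week 3 and 4.25 ± 0.79 at week 4. With 1 pair left out, it ran from 0.69 to 2.91, 1.07 to 2.34, 2.02 to 3.13 and 3.96 to 4.57 at weeks 1 to 4. Radiated skin was higher in 2, 3, 4 and 4 of the 4 pairs. The spread between pairs exceeded the mean at weeks 1 and 2, and was a small part of it at week 4.

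The Sprr2 members and the Sprr1 pair were also summed apart, and the difference between their ratios was not tested. At week 4 the mean log2 ratio within same-numbered pairs was 7.37 ± 0.37 (SD, n = 4) for the Sprr2 members and 3.59 ± 1.22 for the Sprr1 pair. In weeks 1 to 3 the ratio of the Sprr2 members was 5.42 ± 4.34, 2.09 ± 2.37 and 6.36 ± 1.85, and it was above 0 in all 4 pairs of every week, with 0.146 and 0.151 in pairs 1 and 2 of week 2. With 1 pair left out, the mean ran from 4.05 to 6.97, 1.13 to 2.74 and 5.86 to 7.15 in those weeks. The sum of Sprr2a1, Sprr2a2 and Sprr2a3, whose transcripts share most of their sequence, had a ratio of 7.25 ± 0.70. Krt5 plus Krt14, the basal keratins, had a ratio of 0.38 ± 0.12 at week 4 and of 0.29 to 0.52 in the earlier weeks. That sum is no steady scale, since its parts differed in opposite directions at week 4. Krt5 was at 3618 ± 455 CPM in radiated and 6484 ± 913 CPM in control skin, and Krt14 at 7014 ± 572 and 1729 ± 248 CPM.

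**Figure D3:**
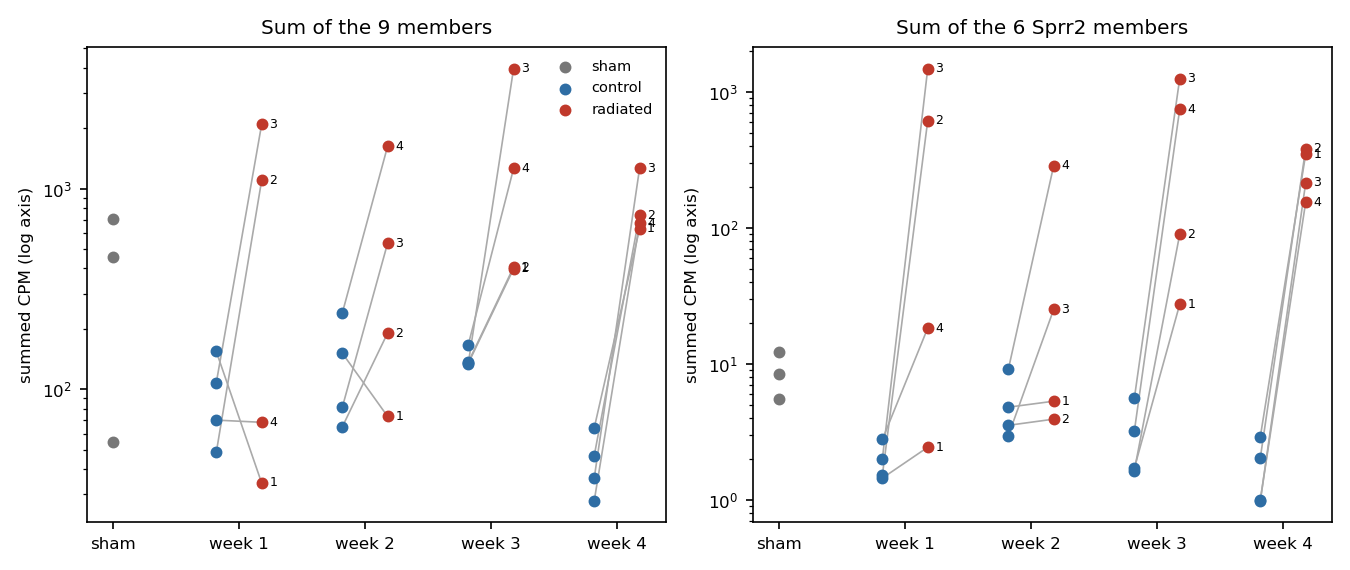
Summed CPM of the 9 members (left) and of the 6 Sprr2 members (right) on log axes, with radiated (red) and control (blue) skin of the same week and number joined by a line, the number beside the radiated point, and sham skin in grey. At weeks 3 and 4 the radiated point is the upper one of all 4 pairs in both panels; at weeks 1 and 2 this holds for all 4 pairs of the Sprr2 sum, and for 2 and 3 pairs of the family sum.

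The make-up of the family was described by each member's share of the summed CPM, with no test. In sham and control skin, Sprr1a alone held on average 94.4% to 96.8% of the family's CPM. In radiated skin of week 4 it held 46.7% ± 15.7 (SD, n = 4), Sprr2a2 27.8% ± 16.0 and Sprr1b 16.5% ± 4.05. The 6 Sprr2 members together held 3.8% ± 0.83 in control skin and 36.7% ± 19.5 in radiated skin of that week, with no overlap between 2.72% to 4.53% and 17.0% to 55.1%. In radiated skin of week 2 Sprr1a held 86.3% ± 12.4, against 94.4% ± 1.01 in control skin.

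**Figure D4:**
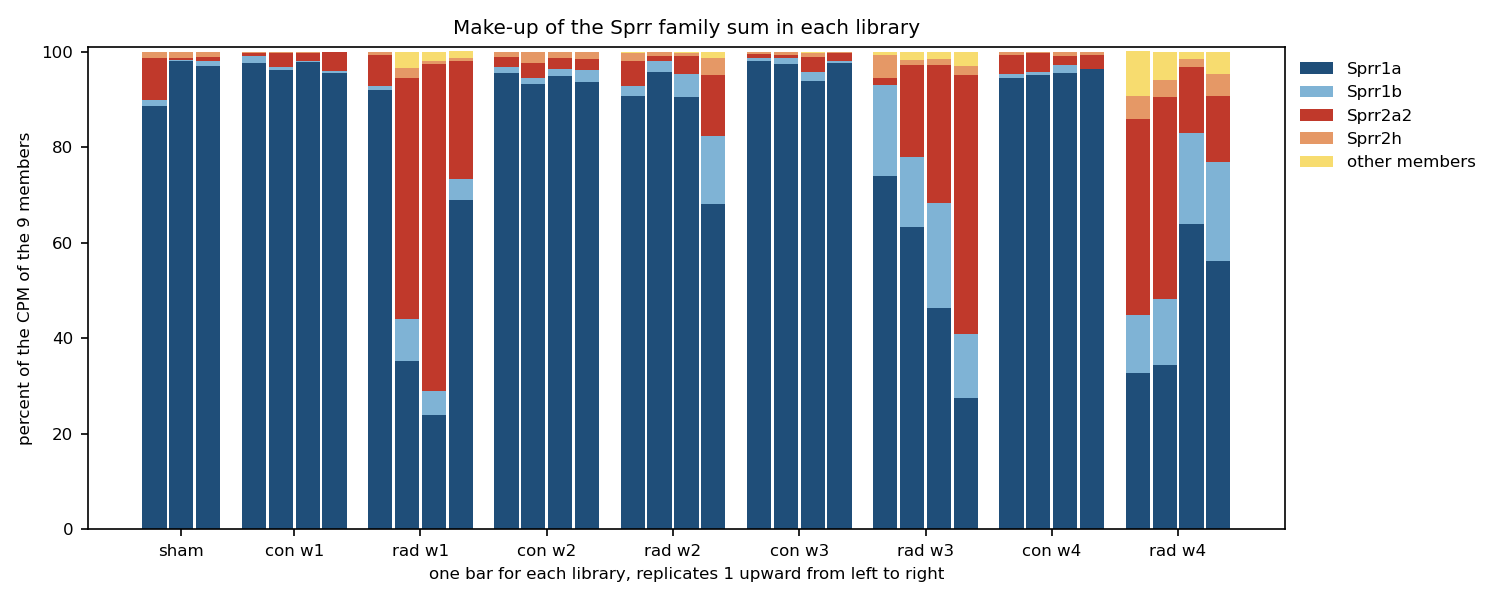
Percent of the CPM of the 9 members held by Sprr1a, Sprr1b, Sprr2a2, Sprr2h and the other 5 members, 1 bar per library. Sprr1a fills at least 88.7% of every sham and control bar, and the radiated bars of weeks 1, 3 and 4 hold between 24.0% and 92.0% of it.

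Levels of different members can be compared per length of transcript, library by library. In radiated skin of week 4, Sprr1a was at 509 ± 340 CPM per kb (SD, n = 4) and Sprr1b at 169 ± 85.9 CPM per kb, and Sprr1a was the higher of the pair in all 4 libraries. Sprr2a2, at 73.2 or 291 CPM per kb with its longest or shortest annotated transcript, is not ordered against them, because its rank turns on the transcript. Sprr2d (31.9 ± 17.2 CPM per kb) lay below Sprr2a2 in all 4 libraries with either transcript. Sprr2h (35.3 or 89.5 CPM per kb) is not ordered against Sprr2d or Sprr2a2. Sprr2e (6.86 ± 2.76 CPM per kb) lay above Sprr2a1 (2.69 ± 1.05) in all 4 libraries as the reads were split, which for Sprr2a1 is uncertain, while Sprr2b (4.92 ± 5.04) overlapped both. In sham skin Sprr1a, at 488 ± 401 CPM per kb, was the highest member in all 3 libraries. Sprr2h (6.61 or 16.7 CPM per kb), Sprr1b (2.74 ± 2.71) and Sprr2a2 (1.18 or 4.7) followed, and their order turns on the library and the transcript.

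Against sham skin, which the radiated groups share as their reference, the members were tested in the same way. At week 4, 8 members passed the filter and 7 were called higher in edgeR, where 15.2% of 18346 genes were called higher. Sprr2a1, Sprr2b, Sprr2d and Sprr2e passed only through the radiated libraries, so their calls add nothing to that count. The exception was Sprr1a. Its sham libraries were at 48.7, 690 and 441 CPM, which overlap the radiated values of week 4, where 1 library, at 807 CPM, lay above all of them (a log2 difference of 0.11 ± 0.76 (SE) in edgeR, adjusted p 0.934). Sprr1b, at 0.707, 1.26 and 4.85 CPM in sham skin, was higher by 6.03 (SE 0.74 and adjusted p 0.000849 in edgeR), and by 7.18 without sham replicate 3. Sprr2a2, at 4.81, 2.43 and 2.94 CPM in sham skin, was higher by 5.99 (SE 0.51, adjusted p 0.000213 in edgeR).

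Sprr2h was the smallest of the 7 calls, 2.46 (SE 0.67 and adjusted p 0.027 in edgeR) over sham values of 0.618, 8.97 and 5.32 CPM. Without sham replicate 3, radiated replicate 1 or radiated replicate 4 its adjusted p was between 0.06 and 0.0731. At week 3, 4 of 7 members tested were called higher (Sprr1b, Sprr2a2, Sprr2d and Sprr2e), against 10.4% of genes. Of these, Sprr2d and Sprr2e passed the filter only through the radiated libraries and so had to differ. That count was 2, 0 and 1 without sham replicate 1, 2 or 3. At weeks 1 and 2 edgeR called no member of 5 tested, against 1.75% and 5.06% of genes. The unadjusted p was under 0.05 for 3 and 2 members, and for 3021 of 18228 and 4261 of 18036 genes. DESeq2 called 1 and 2 members, and its share of all genes is not given.

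Control skin was compared with the same 3 sham libraries. Of 4 members tested each week, edgeR called Sprr2h lower at weeks 1, 3 and 4, by log2 fold changes of -4.80, -2.73 and -4.39 (adjusted p 0.0406, 0.0442 and 0.0371), and Sprr1a lower at week 4, by -3.26 (adjusted p 0.0473). The share of genes called lower in those weeks was 1.65%, 6.19% and 1.9%. At week 2 edgeR called 0 members, against 1.06% of genes called lower. The unadjusted p was under 0.05 for 0 members and for 3765 of 17855 genes, and DESeq2 called 0 members. Control libraries held 26.8 to 224 CPM of Sprr1a and 0 to 3.49 CPM of Sprr2h. Sprr2h passed the filter at weeks 1 and 4 only through the sham libraries, so it had to differ there. Each of the 4 calls ended without sham replicate 2 or sham replicate 3, the libraries with the most Sprr1a and Sprr2h, while the differences kept their direction. Without 1 or the other, the log2 difference of Sprr2h was -4.05 and -4.74 at week 1, -1.99 and -2.67 at week 3 and -3.64 and -4.33 at week 4, and that of Sprr1a at week 4 was -2.58 and -3.15. The calls at weeks 3 and 4 also ended without any 1 of the 4 control replicates, and that at week 1 without control replicate 2, 3 or 4. Those 2 sham libraries also held the highest hair follicle sums given above, and the part of hair follicle cells in the sham values was not tested.

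Of the 8 other Sprr genes of the cluster, most are further Sprr2 copies. At week 4, 7 of the 8 passed the filter and 6 were called higher in edgeR: Sprr2a3, Sprr2f, Sprr2g, Sprr2i, Sprr2j-ps and Sprr2k, at means of 1.06 to 5.80 CPM in radiated skin and at most 0.137 CPM in control skin. The share of all genes called higher was 24.2%, but these 6 passed only through the radiated libraries and so had to differ. At week 3, 5 were called higher, where 13.6% of all genes were, and Sprr2g, Sprr2i, Sprr2j-ps and Sprr2k of these passed only through the radiated libraries. Sprr2f (adjusted p 0.0631 in edgeR) was called with the replicate block (adjusted p 0.0168). Sprr2c-ps had at most 2 counts in any library. Sprr4, which encodes a protein apart from the Sprr1 and Sprr2 groups, was the exception. It was at 2.13, 1.9, 7.42 and 2.19 CPM in radiated skin of week 4 and at 3.02, 1.86, 0.94 and 0.884 CPM in control skin, which overlap (a log2 difference of 1.05 ± 0.55 (SE) in edgeR, adjusted p 0.142). In sham skin it was at 3.09, 41.6 and 14.4 CPM, and some groups were called lower than that. In edgeR the log2 difference from sham skin was -4.16 in radiated skin of week 3 (adjusted p 0.011), and -4.83, -4.08 and -3.59 in control skin of weeks 2, 3 and 4 (adjusted p 0.0329, 0.019 and 0.0489). It was not called in radiated skin of weeks 1, 2 and 4 (adjusted p 0.0976, 0.073 and 0.0504) or in control skin of week 1 (adjusted p 0.0965). With the replicate block in edgeR, Sprr4 kept its call in radiated skin of week 3 (adjusted p 0.0278). It lost those in control skin of weeks 2, 3 and 4 (adjusted p 0.32, 0.146 and 0.301).

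Genes of other envelope proteins were called in both directions. The counts of the next 5 lists are to be read against the shares of all genes called, 24.2% in each direction at week 4 and 13.6% in each direction at week 3. Of 19 other cornified envelope genes tested, edgeR called 1 higher and 5 lower at week 3 and 3 higher and 10 lower at week 4, with a median log2 fold change of -0.43 at week 4 against 0.0175 for all genes. Repetin (Rptn), a filaggrin-like protein, rose from 5.16 ± 2.85 to 281 ± 144 CPM (SD, n = 4 each) at week 4, a log2 fold change of 5.79 (adjusted p 2.16e-05 in edgeR). Filaggrin-2 (Flg2) fell from 5145 ± 782 to 272 ± 213 CPM, by -4.24 (adjusted p 0.00177 in edgeR), and suprabasin (Sbsn) by 2.41 (adjusted p 7.6e-06). Trichohyalin (Tchh), also a hair follicle gene, was at 909 ± 1688 CPM in radiated and 26.2 ± 5.30 CPM in control skin of week 4 (log2 difference 5.12, adjusted p 0.0209 in edgeR). With the replicate block its log2 difference was 2.03 and its adjusted p 0.223.

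Late cornified envelope genes, which encode small proteins added late to the envelope, moved both ways, with a median of 0.195 at week 4, and are known to share sequence among themselves, so that single values are uncertain. At week 4, 7 of 22 were called higher and 8 lower in edgeR, and at week 3, 5 of 20 and 1, where 24.2% and 13.6% of all genes were called in each direction. Lce3d (log2 difference 8.01, adjusted p 0.00534 in edgeR) and Lce3c (7.24, adjusted p 0.0071) rose at week 3. They passed the filter only through the radiated libraries, which were uneven, at 16.2 ± 25.6 CPM for Lce3d and 17.7 ± 27.4 CPM for Lce3c, against 0.0577 ± 0.0881 and 0.105 ± 0.155 CPM in control skin (SD, n = 4). Lce1m fell by 3.24 at week 3 and by 4.29 at week 4 (adjusted p 0.017 and 0.000458).

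Among 19 transglutaminases and other enzymes of cornification, 9 were called higher and 7 lower at week 4 in edgeR, with a median of -0.10, and 2 and 2 of 18 at week 3. For week 3 that is no more than the 13.6% of all genes called in each direction. Klk6, a skin serine protease, rose from 2.57 ± 1.40 to 92.0 ± 37.0 CPM at week 4 (log2 difference 5.19, adjusted p 1.44e-05 in edgeR). Tgm3, a transglutaminase that cross-links envelope precursors, rose by 2.52 (adjusted p 0.000765), and the protease inhibitor Spink5 fell by 1.43 (adjusted p 2.66e-05).

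Transcription factors listed for the suprabasal epidermis or for Sprr promoters were called higher for 10 and lower for 21 of 38 genes at week 4 in edgeR, with a median of -0.72, and for 7 and 12 of 38 at week 3. The count of higher genes at week 4 is near the 24.2% of all genes. The AP-1 members split. Fosl1 rose from 2.54 ± 1.29 to 32.0 ± 12.3 CPM at week 4 (log2 difference 3.68, adjusted p 7.13e-05 in edgeR), while Fosb fell by 4.52 (adjusted p 0.000164) and Fos by 3.49 (adjusted p 7.13e-05). Elf3, an epithelial Ets factor, rose by 3.11 (adjusted p 0.00111) and Runx1 by 2.28 (adjusted p 4.37e-06).

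Cytokines, growth factors and receptors of the epidermal stress response were counted in the same way: 17 of 26 were called higher and 5 lower at week 4 in edgeR, with a median of 1.2, and 10 and 3 of 25 at week 3, against 24.2% and 13.6% of all genes in each direction. Il6 rose from 0.207 ± 0.119 to 17.6 ± 11.6 CPM at week 4 (log2 difference 6.37, adjusted p 1.86e-05 in edgeR), Il1b by 4.69 (adjusted p 1.8e-05) and Il1f6, which encodes interleukin-36 alpha, by 3.19 (adjusted p 0.000286). Of these, Il6 passed the filter only through the radiated libraries. Btc, an Egfr ligand, fell by 2.71 (adjusted p 3.4e-06). At weeks 1 and 2, where edgeR called 0 and 1 genes in all, it called 0 genes of these 5 lists.

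Markers of the suprabasal layers, where Sprr proteins are made, were lower in sum in radiated skin at the late weeks, and differed among themselves. The summed level of 6 such genes was 1109 to 5952 CPM in radiated skin of week 4 against 20372 to 23331 in control skin, and 419 to 11694 against 12642 to 17979 at week 3. Krt10 was at 1390 ± 885 CPM in radiated and 8401 ± 469 CPM in control skin of week 4 (SD, n = 4 each). Krt1, its partner keratin, was not lower: it was at 781 ± 501 and 543 ± 62.9 CPM, which overlap. The 7 basal markers overlapped between radiated and control skin at week 3 (7563 to 17522 and 13264 to 16598 CPM), and at week 4 they were at 12196 to 14986 against 15962 to 20133 CPM. Radiated replicate 1 of week 3 had the lowest Sprr2a2 of its group, and also the lowest Krt10, at 82.8 CPM, and the lowest involucrin (Ivl), at 4.89 CPM. Neutrophil markers, 6 genes, summed to 196 to 316 CPM in radiated skin of week 4 against 14.3 to 17.6 in control skin, and 6 fibroblast genes to 27905 to 47082 against 2207 to 4635. Macrophage markers, 5 genes, were at 928 to 1389 against 167 to 248 CPM, and endothelial markers, also 5, at 427 to 565 against 185 to 310 CPM. T cell markers, 6 genes, were at 54.6 to 73.9 against 35.9 to 40.3 CPM. Skeletal muscle markers, 8 genes, overlapped at week 4 and were at 3251 to 8337 against 19010 to 35773 CPM at week 3. The part of these cell types in the Sprr values was not tested.

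The levels of other genes were compared with the family sum as a description. Over the 35 libraries and 12498 genes of at least 5 CPM, Pearson's r between log2 CPM and the log2 CPM of the family sum was highest for Klk6 (0.903), Krt16 (0.89), Krt6a (0.887), Stac2 (0.879) and Serinc2 (0.876). It was lowest for Ilkap (-0.924) and Rrm2b (-0.905). The libraries of a week and treatment share their group, so these values describe the libraries and carry no test. Krt16 and Krt6a are injury keratins, and Krt16 ran from 12.8 to 345 CPM in sham and control skin and from 16.7 to 6897 CPM in radiated skin.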

How the data were processed

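Bulk RNA-seq was measured in 35 skin libraries. Per the submitters' processing notes, Trim Galore 0.6.7 and kallisto 0.46.2 and the build mm10 are named, with no order or settings, and the labels' protocols add DESeq2. The deposited values are the authors' estimated counts per gene, not scaled between libraries, and 29.5% to 32.5% of values per library were not whole; they were rounded to whole numbers. All rows name a gene. Totals of 17362853 to 28487885 counts set the floor of 3 counts; floors and intervals cover counting error only.

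Each contrast of 2 groups was fitted over all genes in edgeR 4.0.16 (R 4.3.3) with filterByExpr, TMM scaling and the quasi-likelihood F test, with Benjamini-Hochberg adjustment over all genes tested. The standard error is the fold change divided by the root of F. P-values measure the spread between these libraries. The main contrasts and the main interaction fit treated radiated and control skin of 1 mouse as independent. Only the replicate block used the pairing. CPM use TMM-scaled libraries, and log2 CPM a prior count of 2 over 19813 genes. The interaction was fitted over 32 libraries. Alternatives were DESeq2 1.42.0, total-count scaling, DESeq2-type size factors in edgeR, no filter, the replicate block, one fit of all 35 libraries and leaving out each library. Code was tested on simulated data.

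Pairs were taken from the shared numbers in the labels and from 35 samples of 19 mice. The mean correlation of same-numbered radiated and control deviations was 0.071, 0.17, 0.053 and -0.02 at weeks 1 to 4, and -0.024, -0.057, -0.017 and 0.0074 between unequal numbers. With total-count scaling, the median over all genes shifted by 0.136 and 0.235 (log2) in radiated against control skin of weeks 1 and 3, by -0.136 in radiated against sham skin of week 2, and by -0.15, -0.175 and -0.166 in control against sham skin of weeks 1 to 3.

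Members and gene lists were chosen with earlier results of these data known, so no list is independent support. Named genes were all Sprr genes, Krt5 and Krt14, marker genes beside a result, up to 3 genes with the largest increase and 2 with the largest decrease per list at weeks 3 and 4 (at least 5 CPM), of which some are printed, and the 5 genes most and 2 least like the family sum. Gene positions and 31-base words are from GENCODE M21 and promoters from RefSeq GRCm38.p6. Protein sequences were not used here.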

Additional observations from a re-analysis of the deposited data

Results flagged for a closer look

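Of 58 tests of the members and their sums for a library far from the others of its group of 4, by Dixon's ratio of the gap to the range, 12 stood out, where chance gives about 1 in 20. The tests share libraries, so they are not independent. Radiated replicate 4 of week 2 was high beyond that limit for 6 members: Sprr1b at 231.3 CPM (others up to 25.2), Sprr2a1 at 10.02 CPM (up to 0.497), Sprr2a2 at 208.9 CPM (up to 20.5), Sprr2d at 5.993 CPM (up to 1.04), Sprr2e at 3.923 CPM (up to 0.0885) and Sprr2h at 58.02 CPM (up to 3.02). Radiated replicate 3 of week 3 was the highest for Sprr1a, at 1836 CPM (others 257 to 346), and for Sprr1b, at 870.9 CPM (others 60.2 to 168). In radiated skin of week 4, Sprr2a1 was low in replicate 4, at 3.391 CPM (others 9.27 to 9.93), and the family sum was high in replicate 3, at 1261 CPM (others 631 to 738). In control skin, Sprr1b was high in replicate 1 of week 1, at 2.187 CPM (others 0.286 to 0.38), and the family sum in replicate 4 of week 3, at 166.5 CPM (others 134 to 136).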

How the results depend on the processing

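For radiated against control skin of week 4, every called member kept its call under every alternative that gave a value. At week 3, Sprr1a was the member whose call was lost, as given above. Against sham skin of week 4, Sprr2a1 lost its call in one fit of all 35 libraries (adjusted p 0.0975) and Sprr2h lost it there too (adjusted p 0.126). In the count of members called, DESeq2 gave 5 at week 1 and 2 at week 2, and one fit of all 35 libraries gave 1 and 1. Shares of all genes called under an alternative, or with a library left out, are not given in this text. Such counts therefore have no background. Against sham skin, week 1 gave 1 with DESeq2, 1 with no filter and 2 with the one fit, and week 2 gave 2 with DESeq2, 1 with the replicate block and 1 with the one fit. With the block, 3 members were called at week 3, without Sprr2a2 (adjusted p 0.135), and 6 at week 4, without Sprr2h (adjusted p 0.0607). For control against sham skin the replicate block gave 0 at weeks 1, 3 and 4, and the one fit 0 at week 3 and 1 at week 4. Sham numbers are tied by no label to the mice of other groups, so the block pairs no animals there: 5 of 24 comparisons of a sham library with another group gave the highest correlation of deviations for its own number. The change over weeks gave 2 with the replicate block. Leaving out 1 library at a time gave, for radiated against control skin, 0 to 3 members at week 1, and against sham skin 0 to 1 at week 1 and 0 to 5 at week 3; for control against sham skin, 0 to 2 at week 1, 0 to 1 at week 2, 0 to 2 at week 3 and 0 to 2 at week 4; for the change over weeks and the step from week 2 to week 3, 0 to 1 (without replicate 4). No reversed value was a call. With the replicate block at week 2 against sham skin, Sprr1a was at -0.42, Sprr2a1 at -0.28 and Sprr2h at -0.92, and in control against sham skin of week 2 Sprr1b was at -0.45, and at -0.0897 with total-count scaling. Leaving out 1 library moved the log2 fold change of Sprr2h from -0.0038 to 3.5 in radiated against control skin of week 2. Against sham skin it moved Sprr2h from -0.11 to 1.71 at week 1 and from -1.36 to 2.43 at week 2. Sprr1a moved there from -0.69 to 0.90 at week 2, from -0.31 to 1.56 at week 3 and from -0.45 to 0.83 at week 4. In control against sham skin, Sprr1b moved from -0.76 to 1.33 at week 2 and from -1.01 to 0.62 at week 3, and Sprr2a2 from -0.54 to 0.21 at week 2. The cause of these moves was not tested. At depths of 17362853 to 28487885 counts, Sprr3, Sprr2a1, Sprr2b, Sprr2d and Sprr2e in control skin had at most 4 counts in a library, at the limit of detection.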
